A study of Mus musculus with 12 samples.

Results

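The miR-26 family was followed in pancreatic islets, the small groups of endocrine cells that secrete insulin and glucagon. Its members were the panel rows whose name, without species prefix and strand suffix, is miR-26a or miR-26b, with starred rows left out. This gave 2 assays, both with a value, of 750 miRNA spots, of which 566 had a value. Islets came from male C57BL/6 mice of 2 to 3 months. Their mothers had eaten either a low-protein diet (LP0.5, 6 samples) or a control diet (Control, 6 samples) during the whole of pregnancy, and the study asked which islet miRNAs differ between the offspring. The islets were picked by hand and kept in culture overnight before total RNA was taken, and small RNAs were measured by TaqMan real-time PCR. No label says whether a sample is 1 animal or a pool.

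MicroRNAs are short RNAs that pair with messenger RNAs, mainly through bases 2 to 8 at their 5′ end, the seed, and lower the output of their targets. The miR-26 miRNAs are widely expressed and are known for holding back cell growth and division. In cultured beta cells, the insulin-producing cells of the islet, miR-26 belongs with miR-24, miR-148 and miR-182 to a group of miRNAs whose loss lowers insulin messenger RNA, and miR-26a is known to repress the TET enzymes, which oxidise methylated DNA, during differentiation of the pancreas.

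The mature sequences show why the pair is treated as a family. They are the mouse entries of RefSeq (build GRCm38.p6), written 5′ to 3′ with the seed in capitals. The panel's assays carry human names (hsa-miR-26a and hsa-miR-26b), and their own primer and probe sequences were not analysed here.
miR-26a-5p: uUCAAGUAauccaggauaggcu
miR-26b-5p: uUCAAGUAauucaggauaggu
Both hold the seed UCAAGUA, and among 1679 mature names in the RefSeq table they were the 2 names with that seed. Counted from the 5′ end of miR-26a-5p, they were identical at 19 of 21 shared positions and differed by C11U and C21U, both outside the seed. MiR-26a-5p is 22 bases long and miR-26b-5p 21.

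The mature forms come from 3 genes, all on the plus strand. Mature miR-26a-5p is encoded by Mir26a-1 at chr9:119031811-119031832 and, with the same sequence, by Mir26a-2 at chr10:126995543-126995564, so its assay cannot tell these 2 genes apart. Mature miR-26b-5p is encoded by Mir26b at chr1:74394324-74394344. In the RefSeq gene table of GRCm38.p6, Mir26a-1 lies within Ctdspl, Mir26a-2 within Ctdsp2 and Mir26b within Ctdsp1. These host genes encode small phosphatases that act on the tail of RNA polymerase II. The panel holds small RNAs, so the host genes have no value here.

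Each spot has a single linear ratio in the authors' deposited table, with low-protein versus control in its heading and no value per sample. The ratios below therefore carry no replicate error and no p-value. The cycle number behind a ratio, and with it the level of either miRNA, was not analysed here. The heading was read here as low-protein over control, so that a ratio under 1 means a lower level in LP0.5 islets. The heading is the only source of this direction, and it does not state which diet is the divisor. The study is known for naming miR-199a-3p as raised in low-protein islets, whereas the authors' deposited table lists it at 0.422, so the direction is not settled. If the ratio runs the other way, the values become 1.01 for miR-26a and 1.15 for miR-26b. In bulk islets, fewer cells of a type and less RNA per cell cannot be told apart.

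In the authors' deposited table miR-26a had a ratio of 0.989, or -0.02 on the log2 scale. Only 12 of the 566 miRNA spots (2.12%) lay nearer to 1. MiR-26b had a ratio of 0.872 in that column of the authors' deposited table, or -0.20 on the log2 scale, and 180 spots (31.8%) lay nearer to 1. Both ratios were thus below 1, as were 49.1% of the miRNA spots, and neither was as far as 1.5-fold from it. Over the panel, 200 of 566 spots (35.3%) were at least 1.5-fold from 1, 105 above and 95 below (16.8%). Over the A set alone, the part of the panel that holds both assays, it was 88 of 304 spots. A count of 0 among 2 members says little against these shares. The shares also hold extreme values, since ratios by miRNA name ran from 1.09e-04 to 3.63e+07. Whether such assays were near their detection limit was not analysed here.

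**Figure D1:**
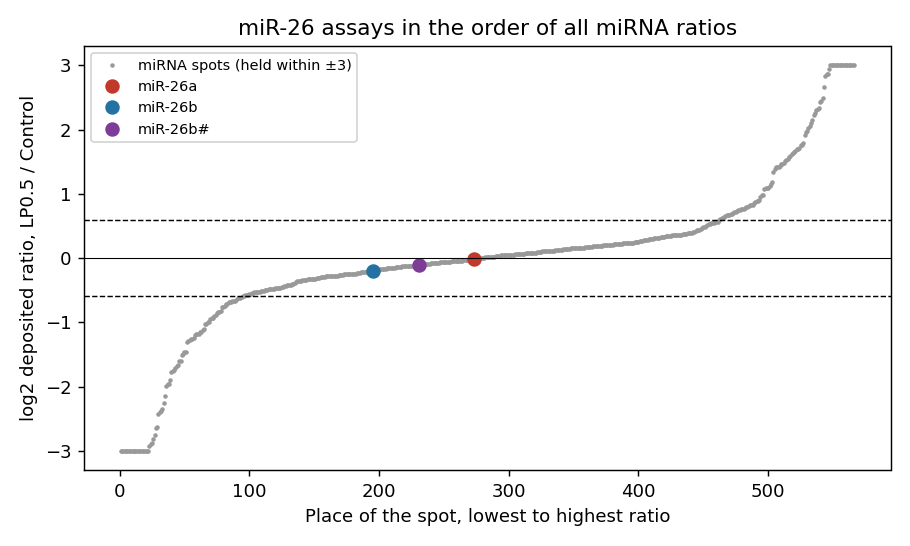
The deposited log2 ratio (LP0.5 over Control, y axis) of each of 566 miRNA spots is plotted against its place from lowest to highest (x axis), with dashed lines at 1.5-fold and values beyond 3 drawn at 3. The miR-26a, miR-26b and miR-26b# spots lie on the flat middle stretch, at -0.02, -0.20 and -0.11, between the dashed lines.

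In the order of 528 miRNA names with a ratio, miR-26a stood at place 257 from the lowest and miR-26b at place 185. With the ratio turned these places are 272 and 344. The names next to miR-26a were miR-324-5p at 0.988 and miR-31# at 0.991, both from the authors' deposited table. Those next to miR-26b were miR-337-3p at 0.871 and let-7d# at 0.872, likewise from the authors' deposited table. These neighbours differed from the members by less than 1.01-fold, far within the spread of repeated control spots, so the order among them carries no information.

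The other strand of the miR-26b hairpin was measured too, under the starred name miR-26b#. Its mouse sequence in RefSeq (GRCm38.p6) is given beside that of the corresponding strand of Mir26a-2, again with bases 2 to 8 in capitals.
miR-26b-3p: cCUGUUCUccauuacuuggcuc
miR-26a-2-3p: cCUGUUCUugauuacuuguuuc
This strand has its own seed, CUGUUCU, which miR-26b-3p shares with miR-26a-2-3p and not with the members. For miR-26b# the authors' deposited table has 0.928, or -0.11 on the log2 scale. The main and the starred strand of miR-26b were therefore both below 1 and 1.06-fold apart. They lie in different assay sets, each with its own U6 reference. In the B set, which holds miR-26b#, the plant control miR159a, for which mice have no gene, was listed at all 8 spots with a median ratio of 3.01. In the A set, which holds both members, miR159a was listed at 2 of 8 spots, at 0.139 and 1.96. Its part in the values of miR-26b# and of the members was not tested. Levels of the starred strands of miR-26a were not analysed here.

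MiR-26a was listed 1.13-fold above miR-26b, a difference of 0.18 on the log2 scale. Both spots belong to 1 block of the panel, in which the U6 spot stands between them, so this difference does not depend on the reference. Where the panel has a pair of assays for 1 name, as it has for 38 names, these differed by a median of 1.31-fold. Such pairs were not limited to 1 set, unlike miR-26a and miR-26b, so they can also hold differences between the sets. Spots of 1 control assay in the A set had a pooled SD of 0.15 on the log2 scale, and the 95th percentile of their distance from their own median was 1.24-fold. The gap between the family members was larger than that SD and smaller than the other 2 measures. The SD and the percentile describe single spots, while the gap is a difference of 2 spots. It was therefore not shown to exceed the spread between spots. By single control, the SD in the A set ran from 0.03 for U6 to 0.25 for snoRNA135. Among 20 other pairs of an a and a b member of 1 miRNA number, measured in 1 set, the median difference was 1.13-fold, with the middle of the distribution (25th to 75th percentile) from 1.07-fold to 1.29-fold. Of these 20 pairs, 11 were closer than miR-26a and miR-26b. They share a number and not always a seed, and the widest, miR-302a and miR-302b, were 24.8-fold apart.

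The block that holds both assays has 47 miRNA spots, 42 of them with a ratio, from 0.403 to 3.89 with a median of 1.02. MiR-26a had 18 miRNA spots of the block below it and miR-26b had 11. Of the 42 spots, 4 were at least 1.5-fold above 1 and 2 at least as far below. The block's U6 spot was the lowest of the 8 U6 spots of the A set, at 0.961 in the authors' deposited table. Of the other controls of the block, snoRNA135 had a ratio of 1.30, snoRNA202 of 1.10, U87 of 1.03 and Y1 of 1.18 in the authors' deposited table. All 4 of these controls were above both members.

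**Figure D2:**
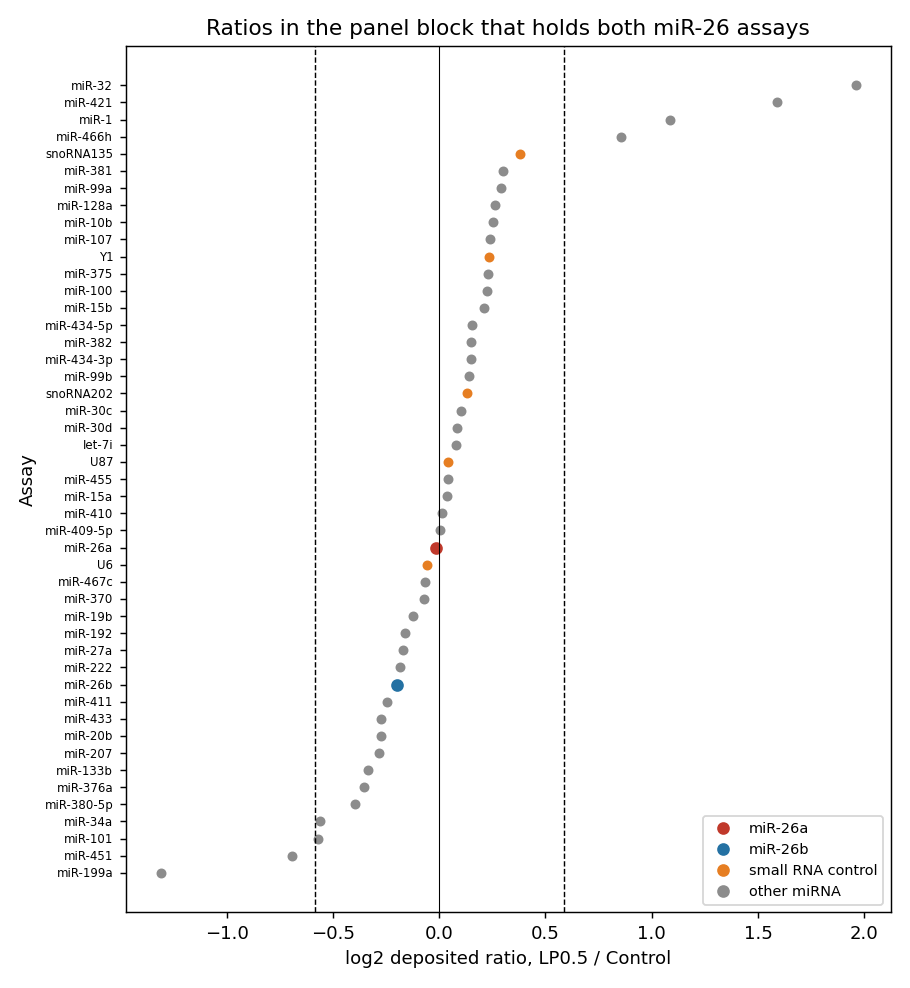
Deposited log2 ratios (LP0.5 over Control, x axis) are shown for every assay with a value in the block that holds both miR-26 assays (y axis, sorted), with dashed lines at 1.5-fold and the small RNA controls in orange. MiR-26a lies next to U6 near 0, and miR-26b lies at -0.20, below all 5 controls.

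The distance of the family from 1 moved with the reference. The U6 spots of each set average 0 on the log2 scale, so the deposited ratios are relative to U6, a small nuclear RNA of the splicing machinery. The remaining controls are snoRNA135, snoRNA202 and U87, small RNAs that guide the modification of other RNAs, and Y1, a small cytoplasmic RNA. Taking the mean of these 4 as the reference moved every ratio of the A set by 0.20 on the log2 scale. MiR-26a then became 0.863 and miR-26b 0.761. By single controls miR-26a ran from 0.825 with snoRNA135 to 0.902 with U87, and miR-26b from 0.728 to 0.795 with the same controls. With the median miRNA of the A set as the reference, miR-26a turned to 1.01 and miR-26b was 0.893. With the U6 spot between them, miR-26a turned to 1.03 and miR-26b was 0.907. MiR-26b was thus below 1 under each of the 10 other references run and miR-26a under 8 of them, and neither reached 1.5-fold under any. These 8 references lower both ratios, and most of them rest on the same 4 controls. The other 2 raised both ratios by at most 0.06 on the log2 scale, less than the distance of miR-26b from 1. The counts follow from these shifts and are not independent checks of direction. Over the whole panel the 4 controls turned the split of spots past 1.5-fold from 105 above and 95 below to 91 above and 130 below. In the B set their mean moved ratios by 0.12 on the log2 scale. There the U87 spots had a mean of -0.33 and a median of 0.05 on that scale, with the lowest at a ratio of 0.133. This low U87 mean makes the B set shift smaller, so the split depends on it in part.

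**Figure D3:**
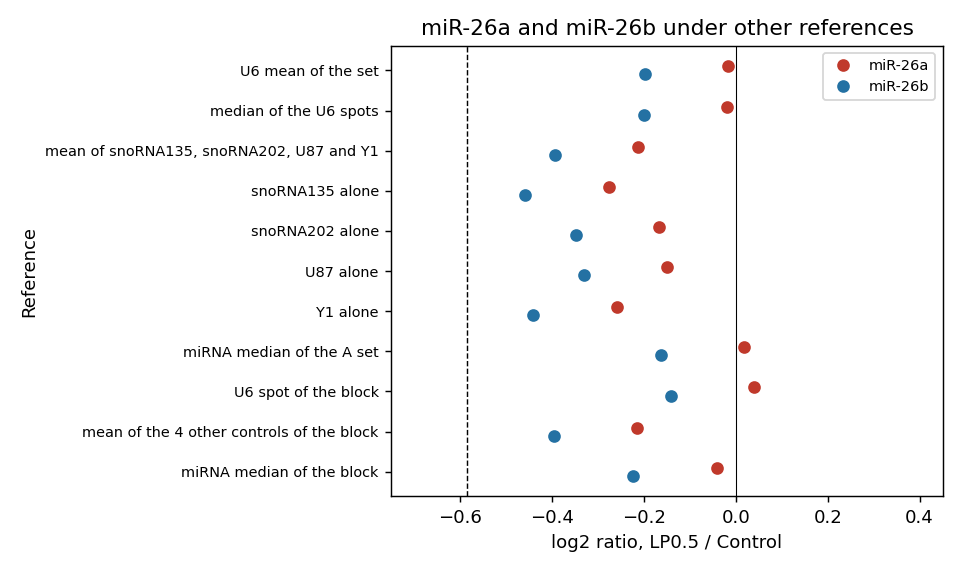
The log2 ratio of LP0.5 over Control (x axis) of miR-26a and miR-26b is plotted for each reference (y axis), the deposited scale at the top, with a dashed line at 1.5-fold below 1. Both points move together, from -0.28 to 0.04 for miR-26a and from -0.46 to -0.14 for miR-26b, at a constant distance of 0.18.

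The other miRNAs of the insulin messenger RNA group were mostly listed below 1 as well. Of the 5 names measured besides miR-26, 4 were below 1 and 1 above. MiR-152, which shares the seed of miR-148, was counted among these 5 although the group as given above does not name it. Over all 528 names, 262 (49.6%) were below 1. The median of the group was 0.931 against 1.01 over all names. None of the 5 was 1.5-fold from 1, as 192 of the 528 names (36.4%) were. All 5 were measured in the A set alone, where miRNA spots had a median ratio of 0.976 and 88 of 304 (28.9%) were past 1.5-fold. With the ratio turned, 4 of the 5 were above 1, with a median of 1.07. With the mean of the 4 other controls the count stayed at 4 below and 1 above, while the median moved from -0.10 to -0.30 on the log2 scale. The 1 above was miR-182, left almost at 1, since its log2 ratio of 0.199 barely exceeded the shift of 0.197. The shifts with snoRNA135 alone (0.261) and Y1 alone (0.243) are larger than its log2 ratio, so the count is not stable. The mature mouse sequences of these 5 names in RefSeq (GRCm38.p6), with the seed in capitals, fall into 3 seeds, none of them that of miR-26. The strand given is the one known as the main strand, since the panel names carry no strand suffix.
miR-148a-3p: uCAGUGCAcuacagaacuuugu
miR-148b-3p: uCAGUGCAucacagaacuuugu
miR-152-3p: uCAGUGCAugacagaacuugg
miR-24-3p: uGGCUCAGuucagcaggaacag
miR-182-5p: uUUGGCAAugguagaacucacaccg
The authors' deposited table listed miR-148a at 0.946, miR-148b at 0.841 and miR-152 at 0.696. These share the seed CAGUGCA, and the a and b members lay 0.17 apart on the log2 scale, beside 0.18 for miR-26a and miR-26b. MiR-152 is linked to this study, so its value is not independent. The authors' deposited table listed miR-24 at 0.931 and miR-182, which is also an endocrine marker, at 1.15. Both miR-26 ratios fell inside the range of these 5 names, between 0.696 for miR-152 and 1.15 for miR-182. They also fell inside it without miR-152, where the lowest was 0.841.

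Cell type markers were read by their ratios alone, since levels were not analysed here. A ratio between the diets cannot check the labelled tissue. All 8 islet endocrine markers had a ratio, with 5 above 1, 3 below, none 1.5-fold from 1 (36.4% of all names were) and a median of 1.09. With the 4 other controls as reference, 4 were above and 4 below. Of those above, miR-182 and miR-200c lay almost at 1, and the side of miR-200c depends on the low U87 mean in the B set. MiR-375, the best known islet miRNA, had a ratio of 1.17 in the authors' deposited table. Both miR-26 members were listed below that value. Markers of other cells in an islet preparation were listed on both sides of 1. The 3 acinar markers had a median ratio of 0.970 with 1 above and 2 below, none 1.5-fold from 1 as an average over assays. Single acinar spots ran from 0.726 to 1.83, since the assays of miR-217 have 0.950 and 1.83 in the authors' deposited table. The 2 endothelial markers had a median of 0.794 with both below, 1 of them at least 1.5-fold, and spots at 0.647 and 0.975. The 5 blood markers had a median of 1.20 with 3 above and 2 below. Past 1.5-fold were 1 above and 2 below, with spots from 0.305 to 1.78. The 4 mesenchymal markers had a median of 0.805 with 2 above and 2 below. Of these, 1 was past 1.5-fold above and 2 were past it below, with spots from 0.190 to 2.66. This median rests on miR-143, whose assays gave 1.11 (A set) and 0.190 (B set) in the authors' deposited table. With A set spots alone, a choice made after seeing the data, the mesenchymal median was 1.31 with 3 above and 1 below. With these spots the median was 0.970 for acinar, 0.794 for endothelial, 1.20 for blood and 1.08 for islet endocrine markers. The part of these cell types in the miR-26 ratios was not tested.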

How the data were processed

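Islet RNA of 6 LP0.5 and 6 Control samples was measured by TaqMan real-time PCR, per the labels' protocols. The authors deposited 1 linear ratio (fold value) per spot, with both diets named in its heading per the file headers, for 846 spots, 190 of them without a value. Limma was used per the submitters' processing notes, with role and version not given in the sources used here. Assay names came from another deposited table, whose 12 per-sample columns match no sample label and were used in no step. The planned limma fit was therefore not run, and depth, error and p-values cannot be given.

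Values for 1 name were averaged as log2 ratios. Blocks were split into an A and a B set by spot code. Starred names mark the other strand of a hairpin. Named miRNAs were the members, the starred strand of miR-26b, neighbours in the order of ratios, the insulin group, cell markers and controls. MiR-7a and miR-126-5p were taken as the panel's miR-7 and miR-126#. The members, lists and 1.5-fold limit were chosen with earlier results of these data known. MiR-302a and miR-302b were named after their values were seen. Counting steps were tested on simulated data. Python 3.11.15, numpy 2.4.6, pandas 2.3.3 and matplotlib 3.10.9 were used.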

Additional observations from a re-analysis of the deposited data

How the results depend on the processing

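No paired analysis was possible because the per-sample columns match no sample label, so that the replicate numbers of the labels could not be tied to values, and the deposited ratios are 1 per spot. Leaving out replicates, other detection limits and the per-sample fit were not run for the same reason. A value was taken as moved where it shifted by more than the pooled SD of A set control spots, 0.15 on the log2 scale. Of 10 other references, 5 moved miR-26a and miR-26b by more than that: on the log2 scale, they gave -0.21 and -0.39 with the mean of the 4 other controls, -0.28 and -0.46 with snoRNA135, -0.17 and -0.35 with snoRNA202, -0.26 and -0.44 with Y1, and -0.21 and -0.40 with the 4 other controls of the block. The block references were chosen after seeing the data, as were the A set alone, where 88 spots were past 1.5-fold against 200 over the panel (fewer spots by construction), and counting by name, with 192. The count was 137 at 2-fold, 163 without starred strands and 221 with the 4 other controls. The last count depends in part on the low U87 mean in the B set. The difference of miR-26a and miR-26b cannot move with a reference they share.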
